A study of Mus musculus with 2 samples.

Results

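The 6 genes described here are the minor and the non-erythroid members of the mouse globin family: the theta globins Hbq1a and Hbq1b, the beta-like gene Hbb-bh2, cytoglobin (Cygb), myoglobin (Mb) and neuroglobin (Ngb). They were chosen by name, though with earlier results of these data known, and each was found once among the 43346 mouse genes of the tables. The 7 main globins, Hba-a1, Hba-a2, Hba-x, Hbb-bt, Hbb-bs, Hbb-y and Hbb-bh1, served only as a yardstick. The samples were healthy livers of B6NCrl mouse embryos, male and female mixed, at embryonic day 11.5. There were 2 total RNA-seq libraries of 1 group, each made from 10 ng of RNA of a pool: replicate 1 pooled 109 embryos, and the labels give no number for replicate 2. No treatment, mutant or other stage was part of the design, so levels could be described but no condition tested.

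All globins fold around a haem group that binds oxygen. In red cells, a pair of alpha-like and a pair of beta-like chains form haemoglobin, and the genes for the chains lie in an alpha-like cluster and a beta-like cluster. Theta globins belong to the alpha-like cluster; in humans the theta gene is transcribed in fetal blood-forming tissue, but a theta chain has not been shown to be part of a haemoglobin. Outside the red cell, myoglobin stores oxygen in heart and skeletal muscle, neuroglobin is made by neurons, and cytoglobin is made by fibroblast-like cells, among them the stellate cells of the liver, where it was found in the rat.

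Markers of both red cells and liver cells were found in the tissue. All 9 matched erythroid markers and all 7 hepatoblast markers reached a TPM (a transcript's share of all transcripts, corrected for length) of 1 or more in both libraries. Across all protein-coding genes, 56.6% reached this level. In replicates 1 and 2 the erythroid list summed to 1341 and 1552 TPM, led by the erythroid regulator Klf1 (377 ± 39.6 TPM), and the hepatoblast list to 9737 and 10897 TPM, led by Afp (5077 ± 537 TPM). The 2 libraries held 34344230 and 31477397 estimated counts in replicates 1 and 2. The markers of heart muscle differed between the pools and are given beside myoglobin. Of the 9 erythroid markers, 0 were higher in replicate 1 and 0 were 2-fold apart, at a median log2 ratio of replicate 1 over replicate 2 of -0.16. Among all genes with 10 or more counts on average, 49.5% were higher in replicate 1. At least 2-fold apart were 2.94% of those genes towards replicate 1 and 1.46% towards replicate 2. Where no library is named, a value is the mean ± SD of both (n = 2). The labels call the pools biological replicates but do not say whether they came from separate matings, so this spread may be partly technical. In whole tissue, fewer cells of a type cannot be told apart from less RNA per cell.

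Of the 6 genes, only the theta globin Hbq1b and cytoglobin reached a TPM of 1 in both libraries, against 31.1% of all mouse genes and 56.6% of protein-coding genes. Hbq1b stood at 35.0 ± 2.56 TPM and Cygb at 1.79 ± 0.318 TPM. Hbq1a (0.535 ± 0.233 TPM), Mb (0.270 ± 0.0566 TPM), Hbb-bh2 (0.120 ± 0.0141 TPM) and Ngb (0.115 ± 0.0919 TPM) lay below 1 TPM in both. Together the 6 genes made up 0.0591% of the TPM of all 13 globins in replicate 1 and 0.0624% in replicate 2. By mean TPM, Hbq1b ranked 3756 among 21474 protein-coding genes, and Cygb ranked 11550.

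**Figure D1:**
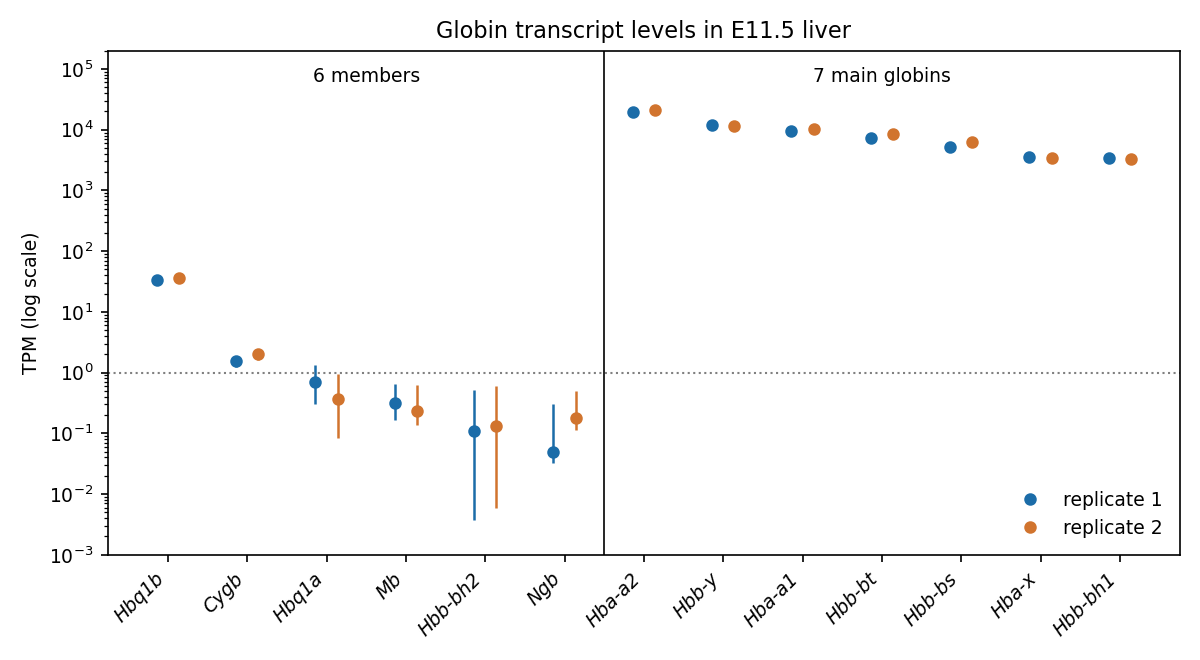
TPM on a log axis of the 6 genes (left) and the 7 main globins (right) in each library; points are libraries and vertical lines the authors' deposited credibility intervals. Hbq1b, near 35 TPM, and Cygb lie above the dotted line at 1 TPM in both libraries, the other members below it, and the lowest main globin is at 3266 TPM.

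The theta globins were the members with most RNA, and nearly all of it was assigned to 1 of the 2 copies. Hbq1b (ENSMUSG00000073063.3; GRCm38 chromosome 11, 32286965 to 32287784) and Hbq1a (ENSMUSG00000020295.1; chromosome 11, 32300069 to 32300873) are both read on the plus strand from 3 exons. They alternate with the adult alpha globins: Hbq1b starts 2499 bases beyond the annotated end of Hba-a1, and Hbq1a starts 2770 bases beyond that of Hba-a2. The next gene beyond Hbq1a, Sh3pxd2b, starts 46946 bases further on.

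The promoters are shown because they are nearly the same while the levels are far apart, and the last coding exon because it holds most coding differences that tell the copies apart, with capitals at the bases that differ between them. The 250 bases before the start were 95.6% identical, with 11 mismatches and no gap, and the 105 bases next to the start were the same in both. These sequences are RefSeq's on GRCm38.p6, plus strand, at chr11:32286714-32286963 for Hbq1b and chr11:32299819-32300068 for Hbq1a.
Hbq1b: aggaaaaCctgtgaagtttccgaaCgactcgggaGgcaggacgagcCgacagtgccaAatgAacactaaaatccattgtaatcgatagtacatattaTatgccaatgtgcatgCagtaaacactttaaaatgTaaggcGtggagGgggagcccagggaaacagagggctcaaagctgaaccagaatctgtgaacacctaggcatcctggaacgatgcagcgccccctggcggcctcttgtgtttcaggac
Hbq1a: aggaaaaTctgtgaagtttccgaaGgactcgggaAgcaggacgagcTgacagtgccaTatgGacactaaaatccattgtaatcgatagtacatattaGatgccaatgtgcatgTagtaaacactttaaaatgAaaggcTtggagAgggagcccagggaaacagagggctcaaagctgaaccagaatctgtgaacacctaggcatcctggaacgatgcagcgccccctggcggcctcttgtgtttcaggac

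The coding sequences were 93.8% identical over 438 aligned columns, counting 9 gap columns as differences. Only 2 of the differing columns lay in exons 1 and 2, and 25 lay in the coding part of exon 3. Up to the stop codon, Hbq1b has 142 codons, as has each main alpha-like gene, and Hbq1a has 145. Within exon 3, Hbq1a holds added bases that are not whole codons, so the bases after them are read in different frames in the 2 copies. The protein sequences were not compared. The coding parts of exon 3 with the stop codon are, on the plus strand of GRCm38, chr11:32287514-32287642 for Hbq1b and chr11:32300619-32300756 for Hbq1a, from GENCODE release M21.
Hbq1b: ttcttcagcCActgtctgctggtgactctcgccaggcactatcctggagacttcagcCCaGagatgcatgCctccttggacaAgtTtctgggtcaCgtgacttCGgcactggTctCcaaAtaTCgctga
Hbq1a: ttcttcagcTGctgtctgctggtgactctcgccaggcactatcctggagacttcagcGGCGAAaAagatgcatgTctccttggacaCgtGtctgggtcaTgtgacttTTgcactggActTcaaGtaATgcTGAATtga

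Most of each theta transcript was distinct at the length of a read window. The tables' effective lengths are 99 bases below the lengths, which corresponds to windows of 100 bases. Of the 505 such windows of the Hbq1a transcript, 382 (75.6%) were found in no transcript of another gene, and of the 463 windows of the spliced Hbq1b transcript 340 (73.4%). All windows that were not unique were shared between Hbq1a and Hbq1b alone, with none shared with the main globins. The adult alpha globins were harder to tell apart: 43.5% of the windows of the spliced Hba-a1 transcript and 25.5% of those of Hba-a2 were unique. The share for Hba-a1 is for its transcript of 699 bases in release M21. The quantification gave this gene a length of 551 and 553 bases in replicates 1 and 2, so its share there may differ.

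Hbq1b had 428 estimated counts and 33.2 TPM in replicate 1, and 407 counts and 36.9 TPM in replicate 2. Hbq1a had 9.13 estimated counts and 0.700 TPM in replicate 1, and 4.24 counts and 0.370 TPM in replicate 2. The copies did not overlap in either library: the deposited credibility intervals ran from 29.5 to 35.8 and from 32.5 to 39.6 TPM for Hbq1b, and from 0.300 to 1.33 and from 0.0851 to 0.95 TPM for Hbq1a. Hbq1b was 47.5-fold above Hbq1a in replicate 1 and 99.6-fold in replicate 2. From the nearest ends of the intervals, the gap was still 22.1-fold and 34.2-fold. Hbq1a rests on few counts, and the fold holds only as far as the quantification divided the shared reads correctly. The sum of the copies does not depend on that division: it was 437 and 411 counts, or 35.6 ± 2.33 TPM.

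The adult alpha genes beside the theta copies are given for comparison. Hba-a2, the neighbour of the low copy Hbq1a, was estimated at 20203 ± 818 TPM, and Hba-a1, the neighbour of the high copy Hbq1b, at 9860 ± 349 TPM. As estimated, Hba-a2 was 2.04-fold and 2.06-fold above Hba-a1 in replicates 1 and 2. The split between these near-identical genes is uncertain, so whether the order of the theta copies matches that of their neighbours cannot be read from it. Set against its own neighbour, Hba-a1 was 289-fold and 274-fold above Hbq1b. Theta transcripts together made up 0.103% of alpha-like globin TPM in replicate 1 and 0.109% in replicate 2 (mean 0.106% ± 0.00377). In estimated counts the share was 0.108% (95% Wilson interval 0.0981 to 0.118%) and 0.112% (0.101 to 0.123%), so the libraries did not differ beyond counting error.

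**Figure D2:**
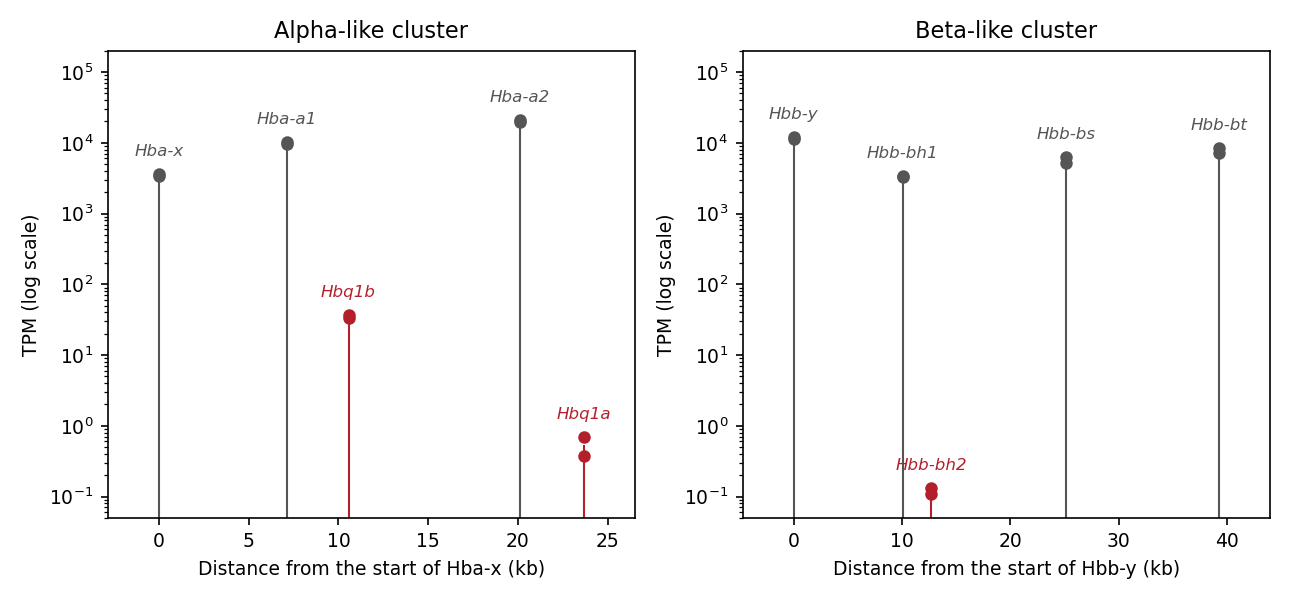
TPM on a log axis of the genes of the alpha-like (left) and beta-like (right) clusters against the distance of each gene's start from that of the first gene, in kilobases along the direction of transcription; points are the 2 libraries, red for Hbq1b, Hbq1a and Hbb-bh2 and grey for main globins. Hbq1b stands near 35 TPM between alpha genes at 9860 and 20203 TPM, and Hbq1a and Hbb-bh2 lie below 1 TPM.

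Hbq1b was assigned to 2 transcripts. The spliced, protein-coding ENSMUST00000101387.3 had 23.9 TPM in replicate 1 and 29.0 TPM in replicate 2. ENSMUST00000151724.1, which keeps the 106 bases of intron 2 (chromosome 11, 32287408 to 32287513), had 9.34 and 7.81 TPM. It also starts later than the spliced form (32287001 against 32286965) and ends later (32287784 against 32287727), so its share does not measure the kept intron alone. The deposited intervals of the 2 transcripts did not overlap in either library. Transcripts annotated as keeping an intron thus made up 28.1% of the TPM of Hbq1b in replicate 1 and 21.2% in replicate 2. Across the 3553 protein-coding genes with such a transcript and a mean of 10 TPM or more, the median share was 6.85% and 5.90%. Hbq1b was above 84.7% of those genes in replicate 1 and above 80.8% in replicate 2. The input was total RNA, which also holds unspliced RNA, and the library protocol was one named for Smart-seq. How much unspliced RNA the libraries hold, and its part in the share, was not tested.

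**Figure D3:**
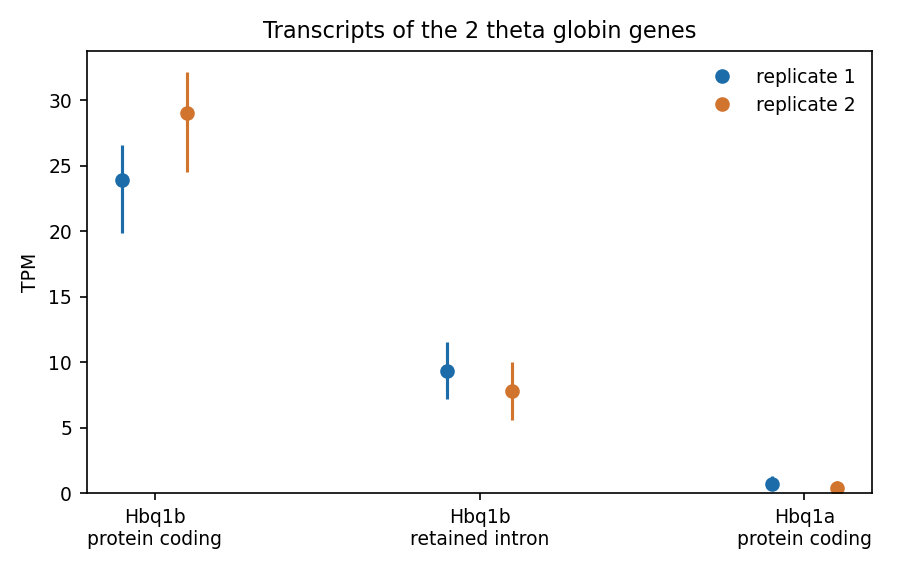
TPM of the 2 annotated Hbq1b transcripts and the single Hbq1a transcript in each library; points are libraries and lines the deposited credibility intervals. The spliced Hbq1b form is highest at 23.9 and 29.0 TPM, the form with an intron follows at 9.34 and 7.81 TPM, and Hbq1a is below 1 TPM.

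Hbb-bh2, a beta-like gene that lies between the embryonic and the adult beta globins, was close to silent in the counts. Hbb-bh2 (ENSMUSG00000078621.1; chromosome 7, 103839124 to 103840520, minus strand) had 1 count in each library, or 0.110 TPM in replicate 1 and 0.130 TPM in replicate 2. This is below the limit that a count of 0 would allow, taken as 3 counts, or 0.337 and 0.386 TPM in replicates 1 and 2. The neighbour upstream, the embryonic Hbb-bh1, ends 1116 bases before Hbb-bh2 starts and had 44853 counts in replicate 1 and 37898 in replicate 2. The protein-coding neighbour downstream, the adult gene Hbb-bs, lies 11027 bases away and had 5690 ± 819 TPM. Hbb-bh2 made up 0.000393% and 0.000442% of beta-like globin TPM in replicates 1 and 2. In counts the share was 0.000247% (Wilson interval 4.37e-05 to 0.00140%) and 0.000269% (4.75e-05 to 0.00152%).

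Hbb-bh2 has no near-identical copy among the globins compared. Its coding sequence was at most 71.3% identical to another globin, namely to both adult beta genes, and 68.5% to Hbb-bh1. All 459 windows of its transcript in release M21 were unique. That transcript is longer, at 558 bases, than the 444 bases that the tables used.

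The promoter of Hbb-bh2 is set beside those of 3 abundant beta-like genes. The bases shown before the annotated start of Hbb-bh2 lack the matches to usual promoter motifs that the others hold. Shown are the 120 bases before the start, from RefSeq on GRCm38.p6, minus strand, at chr7:103840522-103840641 for Hbb-bh2, chr7:103853208-103853327 for Hbb-y, chr7:103827929-103828048 for Hbb-bs and chr7:103813924-103814043 for Hbb-bt. Capitals mark matches on either strand to 4 motifs. The first is CACCC, bound by Kruppel-like factors, and the second is CCAAT. The GATA motif, bound by GATA factors, was searched as AGATAA and, with its first letter changed, as TGATAA. The TATA box was searched as TATAAA, with the variant forms TATAAG and also CATAAA.
Hbb-bh2: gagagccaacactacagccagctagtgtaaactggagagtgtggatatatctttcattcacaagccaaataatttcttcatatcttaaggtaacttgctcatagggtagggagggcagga
Hbb-y: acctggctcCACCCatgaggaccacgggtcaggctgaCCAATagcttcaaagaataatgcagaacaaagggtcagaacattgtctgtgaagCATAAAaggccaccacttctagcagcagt
Hbb-bs: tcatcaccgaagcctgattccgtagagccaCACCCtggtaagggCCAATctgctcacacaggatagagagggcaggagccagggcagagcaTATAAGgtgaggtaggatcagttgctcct
Hbb-bt: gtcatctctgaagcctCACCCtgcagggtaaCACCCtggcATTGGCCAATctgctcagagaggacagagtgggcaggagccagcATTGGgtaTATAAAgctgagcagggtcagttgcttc

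In the full 250 bases before the start, Hbb-bh2 held a match to the GATA motif, further upstream than the bases shown, and to none of the others. Its last bases shown resemble a stretch of Hbb-bs upstream of the TATA form, so the annotated starts may not be at matching positions. Bases beyond the start were not searched, so whether Hbb-bh2 has a TATA form there was not tested. Hbq1a and Hbq1b both held CCAAT and none of the other 3. All 3 promoters listed for Mb held CCAAT, and 2 of them CACCC. Of the 6 promoters of main globins in the RefSeq table, 6 held CACCC, 6 a TATA form, 5 CCAAT and 5 the GATA motif. Among all 32851 windows of the same length, 52.0% held CACCC, 24.9% a TATA form, 33.8% CCAAT and 16.6% the GATA motif. The TATA forms share most of their letters and were counted as 1 motif, as were the 2 GATA forms. Each TATA form searched occurs in a main globin promoter shown above, so the count for main globins is no test against all windows. A match is a description of letters and shows no bound factor.

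Cytoglobin was present at a low level. Cygb (ENSMUSG00000020810.5; chromosome 11, 116645595 to 116654313, minus strand, 4 exons) had 90 counts and 1.56 TPM in replicate 1, and 101 counts and 2.01 TPM in replicate 2. The log2 ratio of replicate 1 over replicate 2 was -0.28 (95% exact binomial interval -0.70 to 0.15), so the pools did not differ beyond counting error. Cytoglobin lies on the same chromosome as the theta genes but far outside the alpha-like cluster. Of the 2232 windows of its transcript, 2127 were unique and the others were shared with Prcd, a gene on the opposite strand that overlaps Cygb by 780 bases. Prcd itself had only 10 and 7 counts. No source used here says whether the counting used strand, so reads of the overlap cannot be told apart. The next gene on the other side, Rhbdf2, had 8.03 ± 0.0707 TPM.

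Of 13 markers of stellate and other mesenchymal cells, in which cytoglobin is known, 12 had a higher mean TPM than Cygb, from Rgs5 (3.99 ± 0.156 TPM) upwards, and 1, Lrat, a lower one. Among all protein-coding genes, 46.2% had a lower mean TPM than Cygb. The 12 markers above Cygb were at 1 TPM or above in both pools, against 56.6% of protein-coding genes. The list summed to 604 TPM in replicate 1 and 601 in replicate 2. The highest were the collagens Col3a1 (239 ± 2.56 TPM) and Col1a1 (161 ± 10.9 TPM) and the matrix protein Lum (61.4 ± 3.01 TPM). None of the 13 markers was 2-fold apart between the pools. Among all genes with 10 or more counts on average, 2.94% were 2-fold apart towards replicate 1 and 1.46% towards replicate 2. Lrat, which makes the stored retinyl esters of mature stellate cells, was the member below 1 TPM, at 0.160 and 0.170 TPM. Which cells held the Cygb transcripts was not tested.

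Myoglobin had few counts in either pool. Mb (ENSMUSG00000018893.10; chromosome 15, 77015487 to 77050670, minus strand) had 7 counts and 0.310 TPM in replicate 1, and 5 counts and 0.230 TPM in replicate 2. The limit that a count of 0 would allow was 0.134 TPM and 0.139 TPM, so both libraries were above it. The quantification gave all 7 counts to ENSMUST00000019037.8 in replicate 1 and all 5 counts to ENSMUST00000166179.3 in replicate 2. The deposited intervals of these 2 transcripts overlapped in both libraries, so no change of transcript can be read from this. In release M21, 646 of the 959 windows of the newer version of ENSMUST00000166179 were unique and the others were shared with the gene Gm49540. The annotated span of Mb overlaps that of Apol6 on the other strand by 5942 bases, and Apol6 had 0 counts in both libraries.

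Heart muscle genes moved strongly between the pools, whereas Mb had too few counts to show whether it moved with them. All 13 heart markers were higher in replicate 1, 11 of them at least 2-fold (Nppb, with fewer counts, included), against 2.94% of all genes that had 10 or more counts on average. Of the 13, 9 were at 1 TPM or above in both pools, against 56.6% of protein-coding genes. Nppb was at 0 counts in replicate 2, and the list summed to 326 TPM in replicate 1 and 142 in replicate 2. The atrial light chain Myl7 had 119 and 58.9 TPM, the cardiac actin Actc1 73.5 and 33.0 TPM and cardiac troponin T, Tnnt2, 28.0 and 10.3 TPM in replicates 1 and 2. The log2 ratio of replicate 1 over replicate 2 was 0.34 for Mb and had a median of 1.25 over the heart list and of -0.00 over 16607 genes. The exact binomial interval for Mb, -1.50 to 2.37, holds both 0 and the median of the heart list. In the skeletal muscle list 8 of 11 genes were higher in replicate 1, against 49.5% of all genes with enough counts, and the sums were 16.7 and 13 TPM. At least 2-fold apart were 1 of the 11 towards replicate 1 (Acta1) and 2 towards replicate 2 (Myh3 and Myh8). Myh3 only just passed, at a log2 ratio of -1.001. Myh8, at 0 and 14 counts in replicates 1 and 2, was under the average of 10 counts. Of all genes that reached this average, 2.94% were at least 2-fold apart towards replicate 1 and 1.46% towards replicate 2. The highest members of the skeletal muscle list were the regulator Myog (4 and 3.66 TPM) and the actin Acta1 (4.82 and 2.03 TPM). The troponin Tnni2 followed at 2.29 and 1.47 TPM. Of 6 smooth muscle markers 4 were higher in replicate 1, none of the 6 by 2-fold, and the list summed to 83.0 and 63.9 TPM, led by the actin Acta2 (56.9 and 40.9 TPM). The part of heart tissue in the Mb counts was not tested.

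**Figure D4:**
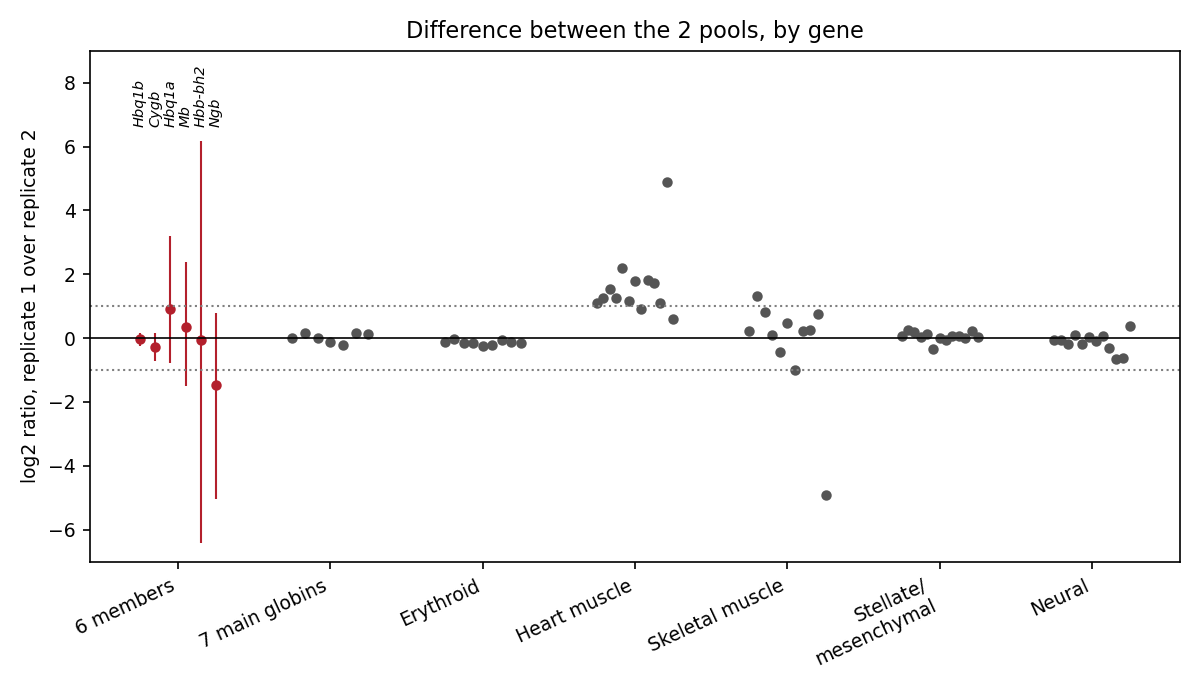
Log2 ratio of replicate 1 over replicate 2 in TMM-scaled counts, per gene, for the 6 members (red, with 95% exact binomial intervals of the counts), the main globins and 5 marker lists; dotted lines mark 2-fold. Heart markers lie above 0 in all 13 cases, and the interval of every member includes 0.

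Neuroglobin was at the edge of detection. Ngb (ENSMUSG00000021032.9; chromosome 12, 87097531 to 87102539, minus strand) had 2 counts and 0.05 TPM in replicate 1, and 6 counts and 0.180 TPM in replicate 2. The limit that a count of 0 would allow was 0.0766 TPM and 0.0878 TPM, so only replicate 2 was above it. All windows of its 3 transcripts were unique. Of 12 neural markers, 7 were at 1 TPM or above in both pools, a share near the 56.6% of all protein-coding genes, and the list summed to 33.3 TPM in replicate 1 and 38.4 in replicate 2. Among the highest were the growth cone protein Gap43 (16.3 ± 1.15 TPM) and the neuronal tubulin Tubb3 (5.09 ± 0.693 TPM). No neural marker was at 0 counts in either library. Of the genes on either side of Ngb, Pomt2 had 7.77 ± 0.933 TPM and Tmem63c had 0 counts. Whether the Ngb counts came from nerve cells was not tested.

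The order of the members was clear at the top and open below. Of the 15 pairs, 8 kept the same order in both libraries with deposited intervals apart and a mean log2 ratio larger than the difference between the libraries. Hbq1b was above each of the other members, from 18.8-fold over Cygb to 171-fold over Ngb, on TPM with a pseudocount of 0.1. Cygb was above Mb (5.09-fold), Hbb-bh2 (8.52-fold) and Ngb (9.13-fold). Cygb and Hbq1a were not separated, since their intervals overlapped in replicate 1. The order among Hbq1a, Mb, Hbb-bh2 and Ngb was not resolved in any pair. An exact sign-flip test of 2 values can reach p = 0.5 at the least, and none was run. With 2 libraries of 1 group there is no pattern over conditions, and no gene is named for a like pattern.

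Between the pools the members differed little where they had counts. Only Hbq1b and Cygb had a mean of 10 or more counts, and neither was 2-fold apart. Among all genes with that many counts, replicate 1 was 2-fold or more above replicate 2 for 2.94%, and replicate 2 above replicate 1 for 1.46%. The log2 ratio of replicate 1 over replicate 2 was -0.04 for Hbq1b (interval -0.24 to 0.16). The main globins had log2 ratios of replicate 1 over replicate 2 between -0.22 (Hbb-bs) and 0.17 (Hba-x and Hbb-y). For Hbq1a the ratio was 0.92 (interval -0.78 to 3.21), for Hbb-bh2 -0.07 (-6.41 to 6.18) and for Ngb -1.48 (-5.04 to 0.79).

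Of the genes that handle globins and haem, 9 of 12 matched had a higher mean TPM than Hbq1b and 3, Lrp1, Hp and Cd163, a lower one. Among all protein-coding genes, 82.5% had a lower mean TPM than Hbq1b. Of 13 listed, 12 were matched, and 11 of these reached a TPM of 1 in both libraries, at a list median of 56.1 TPM (replicate 1) and 65.1 TPM (replicate 2). Across all protein-coding genes 56.6% reached 1 TPM. The highest was Blvrb (441 ± 21.1 TPM), biliverdin reductase B. Next were Cyb5a (347 ± 4.57 TPM), which passes electrons to oxidised haemoglobin, and Cyb5r3 (147 ± 1.19 TPM), the reductase that recharges it. The human forms of this pair also reduce cytoglobin in the test tube. The haem oxygenases Hmox1 and Hmox2 had 60.4 and 50.5 TPM in replicate 1 and 75.2 and 60.7 TPM in replicate 2. Cd163, the haemoglobin scavenger receptor of macrophages, had 2 and 0 counts.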

How the data were processed

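Total RNA of 2 pools of embryonic day 11.5 mouse liver was sequenced. Per the labels' protocols, RNA came from a mirVana kit, spike-in RNAs were added and a protocol named for Smart-seq was used. Per the text notes deposited with the tables, quantification used transcriptome alignments on mm10 with GENCODE M4; no source used here names the quantifier. The values deposited by the authors are estimated counts, not all whole, and TPM relative to all features, spike-ins included (14.6% and 11.1% of TPM). They also deposited FPKM, not used here, and the percent of each gene carried by each transcript. The deposited credibility bounds of the TPM, recorded as a signal, have no stated level.

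Symbols, positions and transcript sequences came from GENCODE M21 on GRCm38, the assembly of mm10, matched on the identifier without its version (42462 of 43346 genes). Transcripts of Hbq1a, Hbq1b and Cygb have the same version in both releases; those of Hbb-bh2 and Mb, and 2 of the 3 of Ngb, do not. Shared windows of 100 bases were searched, on both strands, in 141767 transcripts. Coding sequences were aligned end to end with Biopython 1.88. Promoters were matched in RefSeq by symbol; Cygb, Ngb and Hbb-bh1 were not matched.

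Detection was set at a TPM of 1 in both libraries. Ratios between libraries used estimated counts and a pseudocount of 0.5 counts. Counts were rounded to whole numbers for the TMM factors of edgeR 4.0.16 and for DESeq2 1.42.0. The ratios were tested on simulated data with counting error alone, in which only genes with many counts were changed. That test does not cover members with few counts, such as Hbq1a, Mb, Hbb-bh2 and Ngb. At least 2-fold at a mean of 10 counts was counted. Intervals are 95% exact binomial for ratios and Wilson for shares, and cover counting error only, since reads are not independent molecules. Named were the members, the main globins, other rows of the globin family, the nearest protein-coding genes, the highest transcripts and up to 3 of the highest genes of each list; Hmox1, Hmox2, Cd163, Lrp1, Hp, Rgs5, Lrat, Nppb, Myh3, Myh8 and Gm49540 were named after their values were seen. The members and lists were chosen with earlier results of these data known. Ahsp, on the erythroid and partner lists, is not analysed here, and the value of 1 neural marker is not reported here. Alternatives were posterior means, TPM over mouse genes, other scalings, thresholds and pseudocounts, and leaving out each library. Scripts ran in Python 3.11.15 with pandas 2.3.3 and scipy 1.17.1.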

Additional observations from a re-analysis of the deposited data

How the results depend on the processing

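Of 34 alternative values computed, 23 left the value within the spread between the libraries, within the counting interval or, for counts, within 1.5 times, 11 moved and 0 reversed; the other 16 values, levels and shares in a single library, lie within the spread of 2 libraries by construction and say nothing of stability. Counting TPM over mouse genes alone raised all 6 members by a similar factor: Hbq1b to 40.2, Cygb to 2.04, Hbq1a to 0.618, Mb to 0.311, Hbb-bh2 to 0.137 and Ngb to 0.130 TPM. Deposited posterior means were higher for the lowest genes, at 0.235 TPM for Hbb-bh2, 0.390 TPM for Mb and 0.220 TPM for Ngb, and the Hbb-bh2 share of beta-like globin became 0.000838%. On estimated counts that share was 0.000258% and the theta share of alpha-like globin 0.110%. With a threshold of 0.1 TPM, 5 of the 6 genes counted as detected, against 2 at a TPM of 1. The number of genes at least 2-fold apart between the pools was 731 at a mean of 10 counts, 32 at a mean of 100 and 5141 with no filter. The order of the members had 8 separated pairs on TPM, posterior means and counts. Leaving out replicate 1 or replicate 2 gave the single-library values, which for Ngb were 0.18 and 0.05 TPM. Levels of Hbq1a, Mb, Hbb-bh2 and Ngb are limited by depth, since each rests on fewer than 10 counts a library. No paired analysis was possible because there is 1 group.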

Other observations

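Other rows of the globin family had little signal. Adgb, androglobin, a large protein with a split globin domain that is known from testis, had 40.0 counts and 0.490 TPM in replicate 1, and 29.0 counts and 0.270 TPM in replicate 2. The beta-like pseudogene Hbb-bh3, next to Hbb-bh2, had 0 counts in each; such a count allows a level of at most 0.575 TPM (replicate 1) and 0.659 TPM (replicate 2). The alpha-like pseudogene Hba-ps4 on chromosome 17 had 1.00 and 0 counts. The pseudogene Hbb-bh0 had 15.0 counts in replicate 1 and 2.00 in replicate 2, with a log2 ratio of replicate 1 over replicate 2 of 2.53 (exact binomial interval 0.69 to 5.97). Its TPM, 19.4 and 2.96, rests on an effective length of only 30.0 bases and cannot be set beside that of other genes.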
